A study of Oryctolagus cuniculus with 16 samples.

Results

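Interleukin 1 alpha (IL1A), interleukin 1 beta (IL1B), the interleukin 1 receptor antagonist (IL1RN) and the interleukin 18 receptor 1 (IL18R1) were followed in rabbit vein. These 4 genes are ligands, an antagonist and a receptor of the interleukin 1 family, each identified by an accession on the array. They were chosen with earlier results of these data known, and interleukin 18 (IL18), another ligand with named probes, was not among them. The 4 were part of 1264 rabbit genes named through an accession. Of 43603 array probes 13 measured them: 4 for IL1A and 3 each for IL1B, IL1RN and IL18R1. All tissue came from male rabbits. The surgery groups were vein grafts taken on day 1 (6 arrays) or day 7 (6 arrays) after grafting, and the control group was vein after sham surgery (4 arrays). The labels gave no strain, age, drug or allele, and did not say how many animals stood behind the arrays.

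The interleukin 1 family is an early cytokine system of injured tissue. IL1A is held inside many cell types and is released as an alarm signal when they die, whereas IL1B is made mainly by activated monocytes, macrophages and neutrophils as a precursor that caspase-1 cleaves before it is active. Both ligands bind the same receptor and switch on NF-kappaB and MAP kinase signalling, through which endothelium and smooth muscle produce chemokines, adhesion molecules and matrix proteases. IL1RN occupies that receptor without triggering a signal. IL18R1 binds a related cytokine, interleukin 18, on T cells, natural killer cells and other cells. In grafted veins the family is known for its place in the inflammatory response that precedes wall thickening.

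Levels are given as log2 of the background-subtracted spot signal after quantile normalization, which gives every array the same distribution of values. Of the 6 day 1 arrays, arrays 1, 3 and 5, and likewise arrays 2, 4 and 6, differed by less than the noise between repeated spots. The same held on day 7. Each such set was averaged and counted as 1 sample, which left 2 samples for day 1, 2 for day 7 and 4 for sham surgery. The sham arrays fell into pairs: over all probes the SD of the difference was 0.22 to 0.26 within samples 1 and 2 or 3 and 4, and 0.73 to 0.74 between them. All 4 sham arrays were read in a scan that held no graft array, so scan and surgery cannot be told apart. Each of 3 other scans held 2 day 1 arrays, always at positions 1 and 2, and 2 day 7 arrays, always at positions 3 and 4. Array position and graft day therefore cannot be told apart either. On day 7, arrays at the same position in different scans shared 79.9 to 86.7% of flagged spots, against 29.8 to 32.3% at different positions. Sharing was also greater at the same position on day 1. Whether the same physical arrays were read again was not tested. From 32972 to 36317 probes per array were well above background. A probe was called changed when the limma adjusted p was below 0.05 and the log2 fold change (log2FC) was at least 1 in size. Since the labels name no separate animals, p-values measure only the spread between these samples, which may be technical, and the small number of samples limits the precision. The model used 1 spread estimate per probe for the 3 groups, so SEs between the graft days also hold the sham spread.

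All 4 genes were higher in day 7 grafts than after sham surgery on every probe. All 13 of 13 probes were called higher, where 17.5% of all 35716 probes tested were called higher, 15.4% lower and 32.9% in either direction. Their median log2FC was 5.84, with a range of 2.91 to 9.70, beside a median of 0.04 over all probes. The lowest values on each day belong to an IL18R1 probe that was not well above background after sham surgery, so they are no measured sizes. On day 1, 12 of 13 probes were called higher, beside 25.2% of 35759 probes called higher, 24.6% lower and 49.8% in either direction, and their median log2FC was 6.23 (0.31 to 10.22) beside 0.12 over all probes. Between day 7 and day 1, 3 of 13 probes were called, all higher and all of IL18R1, beside 21.1% of 35718 probes called higher, 18.9% lower and 40.0% in either direction, so the share among the 13 was near the background. The remaining 10 probes, of IL1A, IL1B and IL1RN, did not pass both thresholds in that comparison. The samples of the groups compared did not overlap on any of the 13 probes in any of the 3 comparisons, but this was also true of 72.1% of all probes for day 7 against sham surgery, 82.2% for day 1 against sham surgery and 90.0% for day 7 against day 1. Both comparisons with sham surgery share the same 4 control samples.

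**Figure D1:**
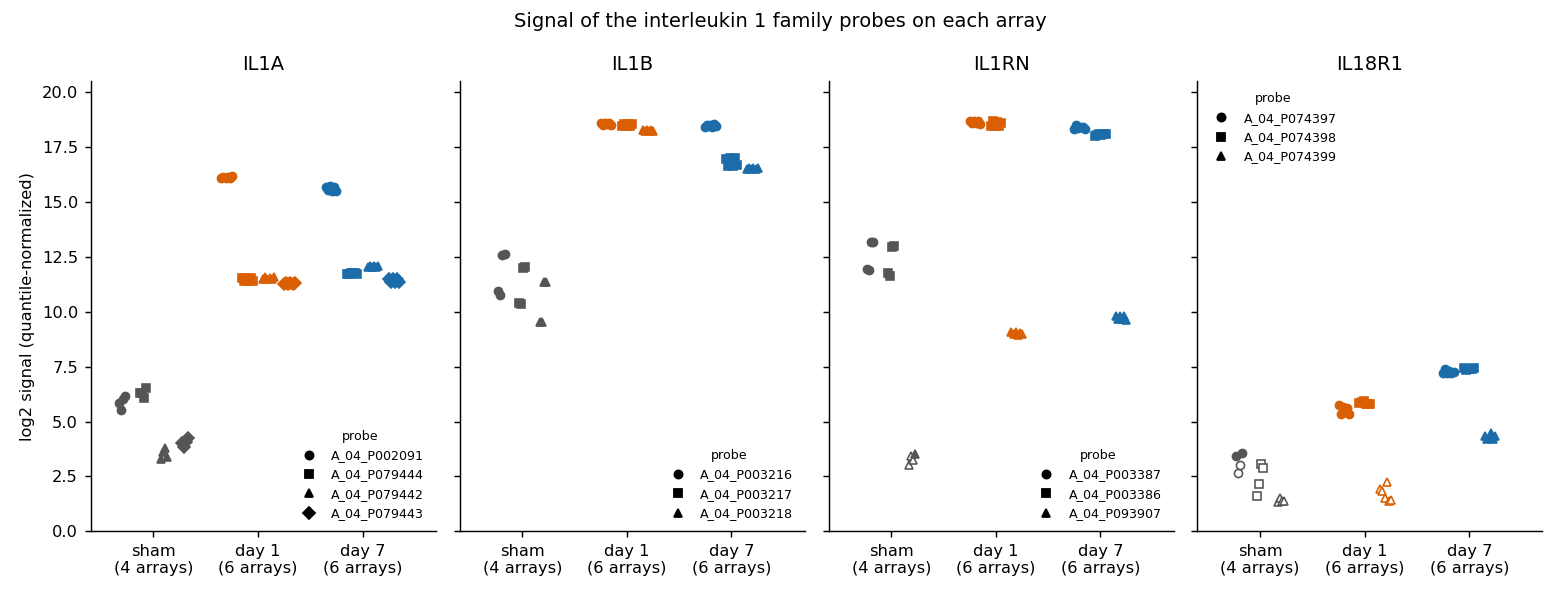
Level of every probe of each gene on every array, as quantile-normalized log2 signal (y axis), by group (x axis). Open symbols mark arrays on which the probe was not well above background. On each probe of IL1A, IL1B and IL1RN all day 1 and day 7 arrays sit far above the sham arrays. On IL1B A_04_P003217 and A_04_P003218 the day 7 arrays sit below the day 1 arrays, whereas for IL18R1 they sit above them.

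IL1A had the largest log2FC over sham surgery of the 4 genes on their brightest probes, those with the highest mean level, though not on every probe. Its brightest probe, A_04_P002091, read 16.08 and 16.15 in the day 1 samples, 15.69 and 15.51 in the day 7 samples, and 5.84, 5.53, 6.05 and 6.18 in the sham samples. Both graft groups lay about the same distance above sham surgery, with no sample in between, and day 7 lay slightly below day 1. The log2FC was 10.22 on day 1 (SE 0.18, adjusted p = 8.87e-08), a 1191-fold difference, and 9.70 on day 7 (SE 0.18, adjusted p = 2.08e-07), an 833-fold difference. Among the probes tested this was the largest rise of day 1 over sham surgery, rank 1 of 35759, and rank 6 of 35716 on day 7. Day 7 minus day 1 was -0.52 (95% CI -1.02 to -0.02), which did not pass after adjustment (adjusted p = 0.0686).

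The other IL1A probes rose by smaller amounts. Probe A_04_P079442 read 11.50 and 11.56 on day 1, 12.02 and 12.08 on day 7, and 3.29, 3.60, 3.82 and 3.39 after sham surgery. This was a log2FC of 8.01 on day 1 and 8.53 on day 7. Probe A_04_P079443 changed by 7.24 and 7.37, and probe A_04_P079444 by 5.16 and 5.44, on day 1 and day 7 respectively. These 3 probes were a little higher on day 7 than on day 1, by 0.14 to 0.52, where the brightest probe was lower. Of the 4 differences between the days, that of A_04_P079442 (0.52, SE 0.18, adjusted p = 0.0368) was below 0.05 but under the fold threshold. All IL1A and IL1B probes were well above background on all 16 arrays. The IL1A signals after sham surgery were nevertheless low, with medians of 10.6 to 73.8 over the 4 probes.

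IL1B, the ligand secreted by myeloid cells, was strongly higher at both times. Probe A_04_P003216 read 18.57 and 18.51 on day 1, 18.47 and 18.44 on day 7, and 10.93, 10.75, 12.58 and 12.62 after sham surgery. The graft samples lay close together, while sham samples 3 and 4 stood 1.76 above samples 1 and 2. The log2FC was 6.82 on day 1 (SE 0.58, adjusted p = 3.52e-05), a 113-fold difference, and 6.73 on day 7 (SE 0.58, adjusted p = 6.77e-05), a 106-fold difference. Against sham samples 1 and 2 alone these were 7.70 and 7.61, and against samples 3 and 4 alone 5.94 and 5.85. Day 7 minus day 1 was -0.09 (95% CI -1.69 to 1.50, adjusted p = 0.915).

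The IL1B probes disagreed about day 7. Probe A_04_P003217 read 18.46 and 18.55 on day 1, 16.98 and 16.65 on day 7, and 10.37, 10.36, 11.98 and 12.03 after sham surgery. Probe A_04_P003218 read 18.27 and 18.23, 16.48 and 16.55, and 9.55, 9.54, 11.36 and 11.33 in the same order. On both probes day 7 lay between day 1 and sham surgery, unlike on A_04_P003216. Day 7 minus day 1 was -1.69 (SE 0.63, adjusted p = 0.0513) for A_04_P003217 and -1.73 (SE 0.69, adjusted p = 0.0626) for A_04_P003218, not called in either case. These SEs include the spread of the sham samples, whose SDs on the same probes were 0.94 and 1.04. In the graft groups the SDs of these probes were 0.03 to 0.23. Of 15 alternatives 7 called the first of these lower on day 7 and 5 the second, among them the fits with 16 separate arrays, with a scan block and with a replicate block. The 3 probes therefore gave rises over sham surgery of 6.82 to 7.80 on day 1 and 5.63 to 6.73 on day 7. No spot of these genes was marked as saturated, and the brightest spot, that of A_04_P003216 on day 7, stood at 70.7% of the saturation level.

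IL1RN, the antagonist, rose beside the ligands it competes with. Probe A_04_P003387 read 18.67 and 18.57 on day 1, 18.36 and 18.40 on day 7, and 11.93, 11.90, 13.17 and 13.16 after sham surgery. The graft samples were again close together, and sham samples 3 and 4 stood 1.25 above samples 1 and 2. The log2FC was 6.08 on day 1 (SE 0.42, adjusted p = 1.19e-05), a 67.6-fold difference, and 5.84 on day 7 (SE 0.42, adjusted p = 2.73e-05), a 57.3-fold difference. These were 6.70 and 6.46 against sham samples 1 and 2, and 5.45 and 5.22 against samples 3 and 4. Day 7 minus day 1 was -0.24 (95% CI -1.38 to 0.90, adjusted p = 0.687). Probe A_04_P003386 gave 6.23 on day 1 and 5.74 on day 7. The dim probe A_04_P093907, well above background on 1 of 4 sham arrays, gave 5.71 and 6.42. It was higher on day 7 than on day 1 by 0.71 (SE 0.18, adjusted p = 0.0123), under the fold threshold.

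IL18R1 was the only gene of the 4 to be called higher on day 7 than on day 1, and with a scan or replicate block the IL1B probes A_04_P003217 and A_04_P003218 were called as well, as lower. Probe A_04_P074397 read 5.69 and 5.41 on day 1, 7.22 and 7.32 on day 7, and 3.45, 2.65, 3.03 and 3.55 after sham surgery, where 2 of 4 arrays were well above background. The groups formed 3 separate steps, with sham surgery lowest and day 7 highest. The log2FC over sham surgery was 2.38 on day 1 (SE 0.26, adjusted p = 1.22e-04) and 4.10 on day 7 (SE 0.26, adjusted p = 1.49e-05), which are 5.21-fold and 17.1-fold differences. Day 7 minus day 1 was 1.72 (95% CI 1.01 to 2.42, adjusted p = 0.00203), a 3.28-fold difference. Within the 3 scans that held both days it was 1.68 to 1.74. The scans hold repeats of the same 2 samples per day, with each day always at its own array positions, and are no further replication. IL18R1 was dim throughout, with a median background-subtracted signal on this probe of 8.83 after sham surgery, 39.1 on day 1 and 216 on day 7.

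The dimmer IL18R1 probes followed the same order. Probe A_04_P074398 read 5.87 and 5.83 on day 1, 7.41 and 7.40 on day 7, and 1.62, 2.18, 3.06 and 2.86 after sham surgery, where it was well above background on 0 of 4 arrays. A lower bound for the rise took, on each sham array, the lowest signal counted as well above background or the probe's own if higher. By this bound the probe was at least 6.88-fold higher on day 1 and at least 20.2-fold higher on day 7. The limma adjusted p of the fitted values, 1.45e-04 and 3.87e-05, does not test these bounds. Day 7 exceeded day 1 by 1.55 (SE 0.44, adjusted p = 0.0187). Probe A_04_P074399 was not well above background on any sham or day 1 array. It read 4.27 and 4.36 on day 7, at least 2.42-fold above sham surgery and at least 1.62-fold above day 1. The adjusted p of its fitted values, 1.48e-06 and 6.20e-06, rests on readings not well above background and does not test these bounds.

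The step from day 1 to day 7 in IL18R1 depended on the processing in size. With each array's 75th percentile as the scale in place of quantile normalization it was 0.96 for A_04_P074397 (adjusted p = 0.0185) and 0.84 for A_04_P074398 (adjusted p = 0.107), neither called. The main fit had a median of -0.03 over all probes, and that scaling put it at -0.41. Relative to that median the differences were 1.36 and 1.25. With normexp background correction, which adds an offset of 50 to each signal, A_04_P074397 gave 0.74, A_04_P074398 0.84 and A_04_P074399 0.18, so none of the 3 probes was called between the days. When any 1 of the 4 graft samples was left out, A_04_P074398 lost its call between the days (adjusted p = 0.0696 to 0.0753), and the other 2 probes kept theirs. The raw signal at the 75th percentile was 863 to 1023 on day 1 arrays and 2488 to 2831 on day 7 arrays, and its part in these differences was not tested.

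**Figure D2:**
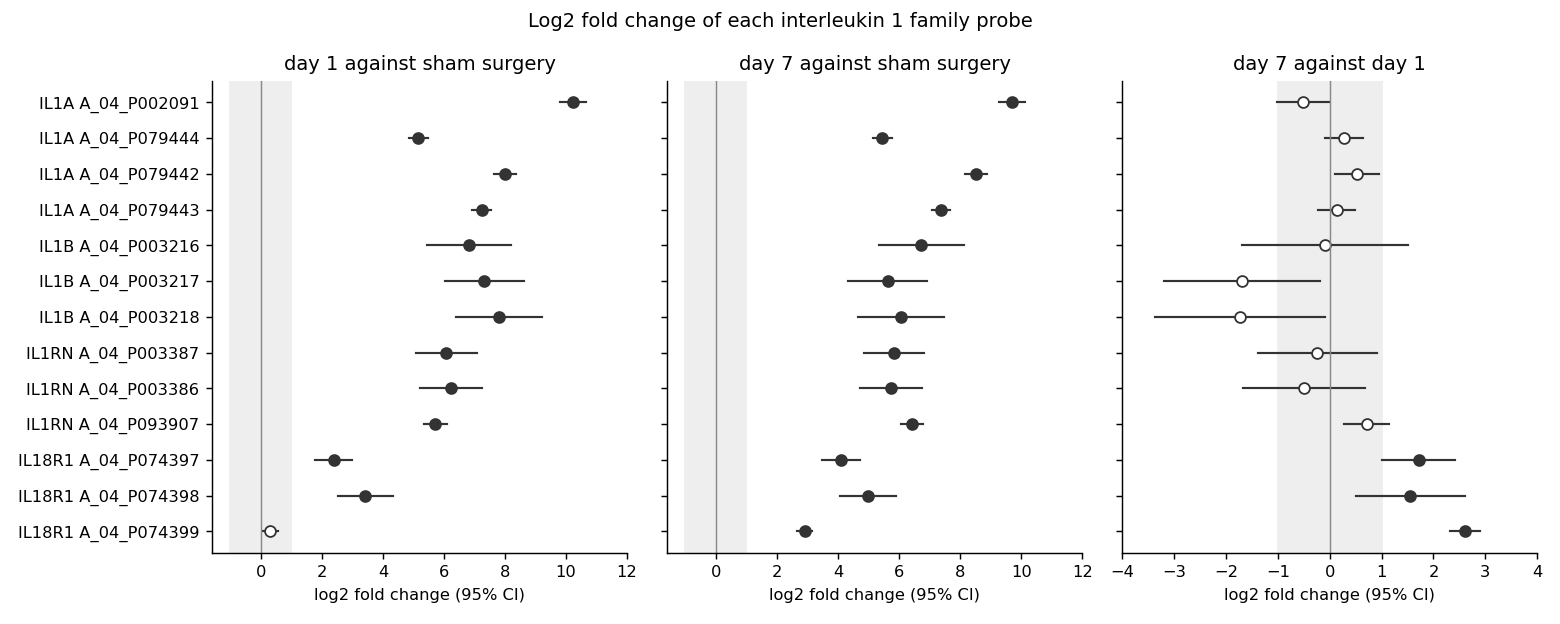
Log2 fold change (x axis) of each of the 13 probes in the 3 comparisons, with 95% confidence intervals from the limma model. Filled points were called, and the grey band marks changes of less than 1 on the log2 scale. Against sham surgery every point but A_04_P074399 on day 1 lies to the right of the band, and between the graft days only the 3 IL18R1 probes are filled.

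Set against all probes on the array, the IL1A, IL1B and IL1RN probes lay far out in the upper tail of both comparisons with sham surgery. On day 1 the 10 probes of these genes ranked from 1 to 335 of 35759 by log2FC, and on day 7 from 6 to 197 of 35716. The IL18R1 probe A_04_P074397, the only one of its gene to be well above background on any sham array, ranked 2748 on day 1 and 522 on day 7. Between the graft days A_04_P074397 ranked 4313 and A_04_P074398 ranked 4967 of 35718, and neither was near the top.

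**Figure D3:**
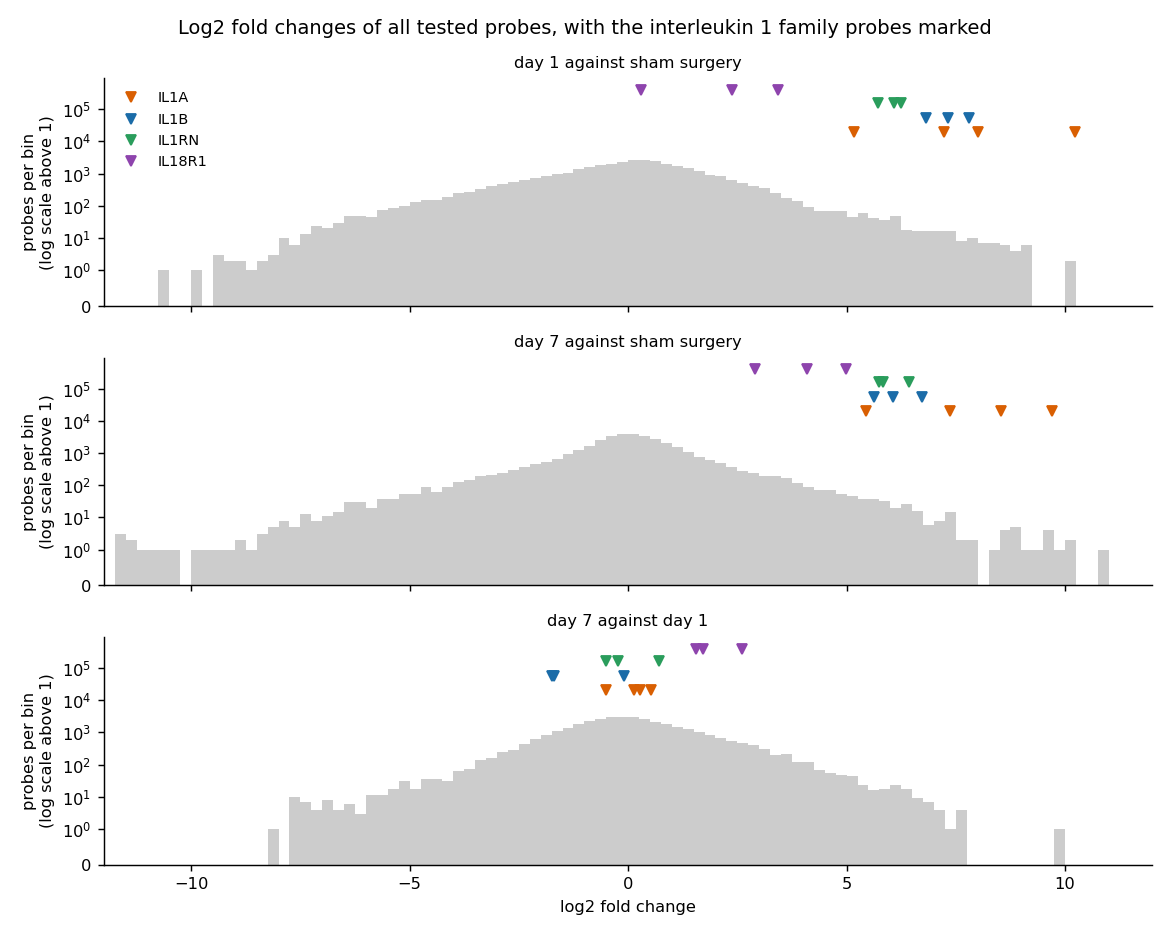
Distribution of log2 fold change (x axis) over all probes tested, as the number of probes per bin on a log axis (y axis), for the 3 comparisons, with the 13 probes drawn as triangles coloured by gene. In both comparisons with sham surgery the IL1A, IL1B and IL1RN triangles lie in the right tail, and between day 7 and day 1 most lie near 0.

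Probes of 1 gene could be set against each other within a sample, as a ratio that needs no scaling between arrays. For IL1A the log2 ratio of the brightest probe to A_04_P079444 was -0.42 after sham surgery, 4.39 on day 1 and 4.39 on day 7. The ratio to A_04_P079442 moved from 2.38 to 4.32 and 4.09, and that to A_04_P079443 from 1.87 to 4.58 and 4.70. All 3 ratios were higher in the grafts than after sham surgery, so the brightest probe rose by more than the others. For IL1B the ratio of A_04_P003216 to A_04_P003217 was 0.51 after sham surgery, 0.08 on day 1 and 0.87 on day 7, and that to A_04_P003218 was 1.23, 0.52 and 1.09. For IL1RN the ratio of A_04_P003387 to A_04_P003386 stayed between 0.12 and 0.20 in the group means, with day 1 samples at -0.12 and 0.36. The IL1RN ratio to the dim A_04_P093907 was 10.01 on day 1 and 8.55 on day 7, so these IL1RN probes also disagreed between the days. It is not given after sham surgery, where that probe was well above background on 1 of 4 arrays. The disagreement of IL1B probes over day 7 was thus also present without normalization between arrays, though it was smaller: from day 1 to day 7 the first IL1B ratio moved from 0.08 to 0.87 without normalization and from 0.04 to 1.64 after it.

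**Figure D4:**
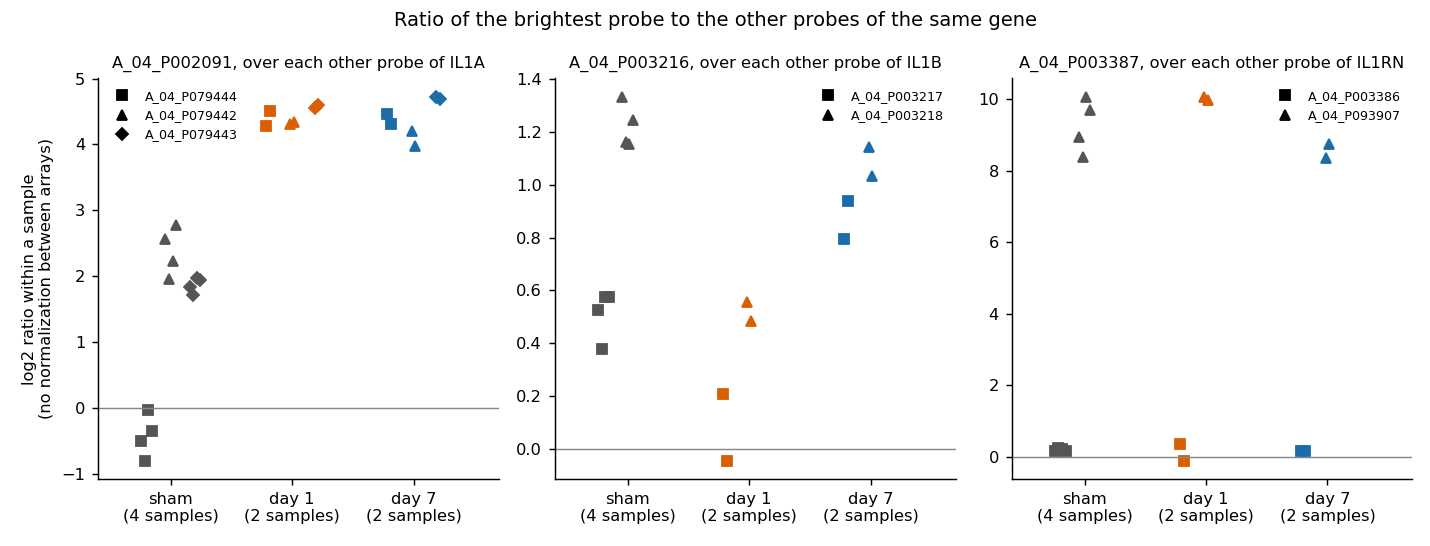
Log2 ratio of the brightest probe of IL1A, IL1B and IL1RN to each other probe of the same gene (y axis) in every sample, by group (x axis), without normalization between arrays. The IL1A ratios are higher in both graft groups than after sham surgery, and the IL1B ratios are lowest on day 1.

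The balance of antagonist and ligand was compared in the same way, as the difference between the brightest probes within a sample. Its absolute value has no meaning across probes, and its shift between groups depends on the probes taken. For IL1RN over IL1B the group mean was 0.82 after sham surgery (0.54 to 1.15) and lower in the grafts, at 0.05 to 0.10 on day 1 and -0.10 to -0.04 on day 7. For IL1RN over IL1A it fell further, from 6.64 after sham surgery to 2.50 on day 1 and 2.78 on day 7. On these probes the log2FC of IL1A and IL1B over sham surgery therefore exceeded that of IL1RN, a difference between genes that was not tested. Other probes gave the opposite order: IL1A A_04_P079444 changed by 5.16 and 5.44 on day 1 and day 7, and IL1B A_04_P003217 by 5.63 on day 7, against 6.08 and 5.84 for IL1RN A_04_P003387. Without normalization between arrays the IL1RN over IL1A difference was 6.68, 3.18 and 2.14, so the order of day 1 and day 7 turned while both stayed below sham surgery. With normexp background correction it was 4.89 after sham surgery, 2.40 on day 1 and 2.64 on day 7.

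In the rabbit assembly mOryCun1.1, IL1A, IL1B and IL1RN lie close together: the IL37 gene stands between IL1A and IL1B, and IL36G, IL36A, IL36RN and IL1F10 stand between IL1B and IL1RN. IL18R1 is on the same chromosome, with 93 protein-coding genes between it and IL1RN. Over the 8 samples IL1B and IL1RN had the most alike profiles of the 4 genes (Pearson r = 0.9992), and IL1A had r = 0.988 with IL1B and 0.993 with IL1RN. IL18R1 had r of 0.913 to 0.918 with the others. These values describe points that share arrays and fall into 3 groups.

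Among 1968 named genes, the genes with the profiles most like each of the 4 over the 8 samples were ranked by Pearson r. For IL1A these were SAA3 (0.9997), an acute-phase serum amyloid gene, PTBP3 (0.9997) and CENPS (0.9992). For IL1B they included SLC7A5 (0.9983), which carries large neutral amino acids into cells, and C4H21orf91 (0.9982). For IL1RN they included SLC7A5 (0.9996) and KMO (0.9987), an enzyme of tryptophan breakdown. For IL18R1 they were STEAP2 (0.9919), LYPLA1 (0.9913) and LMAN1 (0.990). Over sham surgery the log2FC of SAA3 was 7.61 on day 1 and 7.26 on day 7, that of SLC7A5 6.27 and 6.04, and that of STEAP2 1.19 and 2.40. These genes were picked for their likeness to a member, so sharing its order of groups is no separate result.

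Other genes of the pathway were measured only in part. Of 8 other ligands of the family only IL18, the cytokine that binds IL18R1, was named. It was lower in the grafts, where its receptor was higher. The samples read 13.04 and 13.21 on day 1, 14.46 and 14.45 on day 7, and 16.04, 16.08, 15.67 and 15.46 after sham surgery. All 7 of its probes were lower in both graft groups. The log2FC of the brightest was -2.69 on day 1 (SE 0.19, adjusted p = 1.37e-05) and -1.36 on day 7 (SE 0.19, adjusted p = 7.29e-04), and with 75th percentile scaling the latter was -0.61 and no longer called. Of 10 other receptors and soluble inhibitors, including the receptor shared by IL1A and IL1B, 0 were named here, so no ligand could be set beside that receptor.

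Of 17 inflammasome and processing genes only CASP1, the protease that activates IL1B and IL18, was named. It read 12.07 and 12.13 on day 1, 12.05 and 12.14 on day 7, and 8.02, 7.53, 8.79 and 8.49 after sham surgery. It was higher by 3.89 on both days (SE 0.32, adjusted p = 3.08e-05 on day 1 and 5.58e-05 on day 7). Of 30 receptor signalling genes 5 were measured. On day 7 only CHUK, a kinase that activates NF-kappaB, was called higher (1.01, at the threshold, and 0.98 and not called with 75th percentile scaling), FOS (-3.14) and JUN (-1.33) were called lower, and the median was 0.12. On day 1, 0 were called higher and 2 lower. Over all probes tested, 17.5% were called higher and 15.4% lower on day 7, and 25.2% and 24.6% on day 1.

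Genes that interleukin 1 and interleukin 18 are known to induce were largely higher on day 7. Of 32 such genes 18 were measured, and 14 were called higher and 1 lower on day 7 (median 2.88), against 10 higher and 1 lower on day 1 (median 1.43), 1 of the 10 being MMP13, which was not well above background in either group. TNF rose by 7.93 on day 1 and 6.27 on day 7, the neutrophil chemokine CXCL8 by 7.80 and 4.68, and the monocyte chemokine CCL2 by 5.63 and 4.61. All 3 were lower on day 7 than on day 1, CCL2 narrowly (-1.02, and -0.53 and not called with 75th percentile scaling). The collagenase MMP13 was at least 27.9-fold higher on day 7 than after sham surgery. The 1 gene counted as lower on day 7 was PTGS2 (-1.10). Its day 7 value rests on 1 sample because the spot failed in the other, so its call assumes that this sample varies like the rest, and with 75th percentile scaling it was -0.20 and not called. Between the graft days 8 of the 18 were called higher and 6 lower. The shares of all probes called higher and lower were 17.5% and 15.4% on day 7 and 25.2% and 24.6% on day 1. Between the days they were 21.1% and 18.9%.

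Markers of inflammatory cells were largely higher in the grafts than after sham surgery, as the 4 genes were. From day 1 to day 7 the neutrophil markers fell, whereas IL18R1 rose and IL1A, IL1B and IL1RN were not called. In bulk tissue fewer cells of a type and less RNA per cell cannot be told apart. All 6 neutrophil markers measured were higher on day 1 (median log2FC 5.50) and 4 of 6 on day 7 (2.07), and all 6 were lower on day 7 than on day 1 (-3.01). The log2 of their summed signal was 13.26 to 14.69 after sham surgery, 19.45 to 19.50 on day 1 and 16.95 to 16.98 on day 7. All 4 macrophage and monocyte markers measured, MSR1, CD86, CD14 and CD80, were higher on both days (median 4.76 on day 1 and 5.04 on day 7), and their summed signal was 10.94 to 11.99 after sham surgery, 17.09 to 17.12 on day 1 and 16.75 to 16.87 on day 7. All 10 of these markers were well above background on every array. The part of these cells in the levels of IL1A, IL1B, IL1RN and IL18R1 was not tested.

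Markers of the vessel wall were present, and the smooth muscle and endothelial markers called over sham surgery were lower. All 4 smooth muscle markers and 3 of 4 endothelial markers were well above background on every array. On day 7, 3 of 4 smooth muscle markers were lower, among them the contractile myosin MYH11 (-6.49), and 3 of 4 endothelial markers, among them NOS3 (-2.95). On day 1, 2 of 4 were lower in each list. Between the days 1 smooth muscle marker, ACTA2, was called higher on day 7 (4.65) and 1 lower. Of the endothelial markers 2 were lower on day 7 than on day 1. Of all probes tested, 15.4% were called lower and 17.5% higher on day 7, and 24.6% and 25.2% on day 1. Between the days 18.9% were called lower and 21.1% higher. With 75th percentile scaling the smooth muscle gene CALD1 was at -0.63 and not called. KDR, the main endothelial receptor for vascular endothelial growth factor, was not well above background in any graft array. Of 4 T cell and natural killer cell markers, 2 were called higher on each day, and between the days 1 was higher and 2 lower. The single B cell marker, MS4A1, was higher on day 1 (2.28) and not called on day 7 (0.39). Of 3 fibroblast markers 3 were lower on day 1 and 1 on day 7, of 3 adipocyte markers 1 was lower on each day, and of 2 red blood cell markers 0 were called over sham surgery by limma, also 0 at an unadjusted p under 0.05. With 75th percentile scaling both were called higher on day 1, HBA by 1.79 and HBB2 by 1.25, where that scaling put the median of all probes at 0.47. The summed neutrophil markers of sham samples 3 and 4, at 14.69 and 14.67, were above those of samples 1 and 2, at 13.26 and 13.37, as IL1B and IL1RN were. The adipocyte markers split the same samples, at 16.93 and 16.89 against 10.53 and 10.60. Whether the tissue makeup of the sham samples bears on their IL1B and IL1RN levels was not tested.

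**Figure D5:**
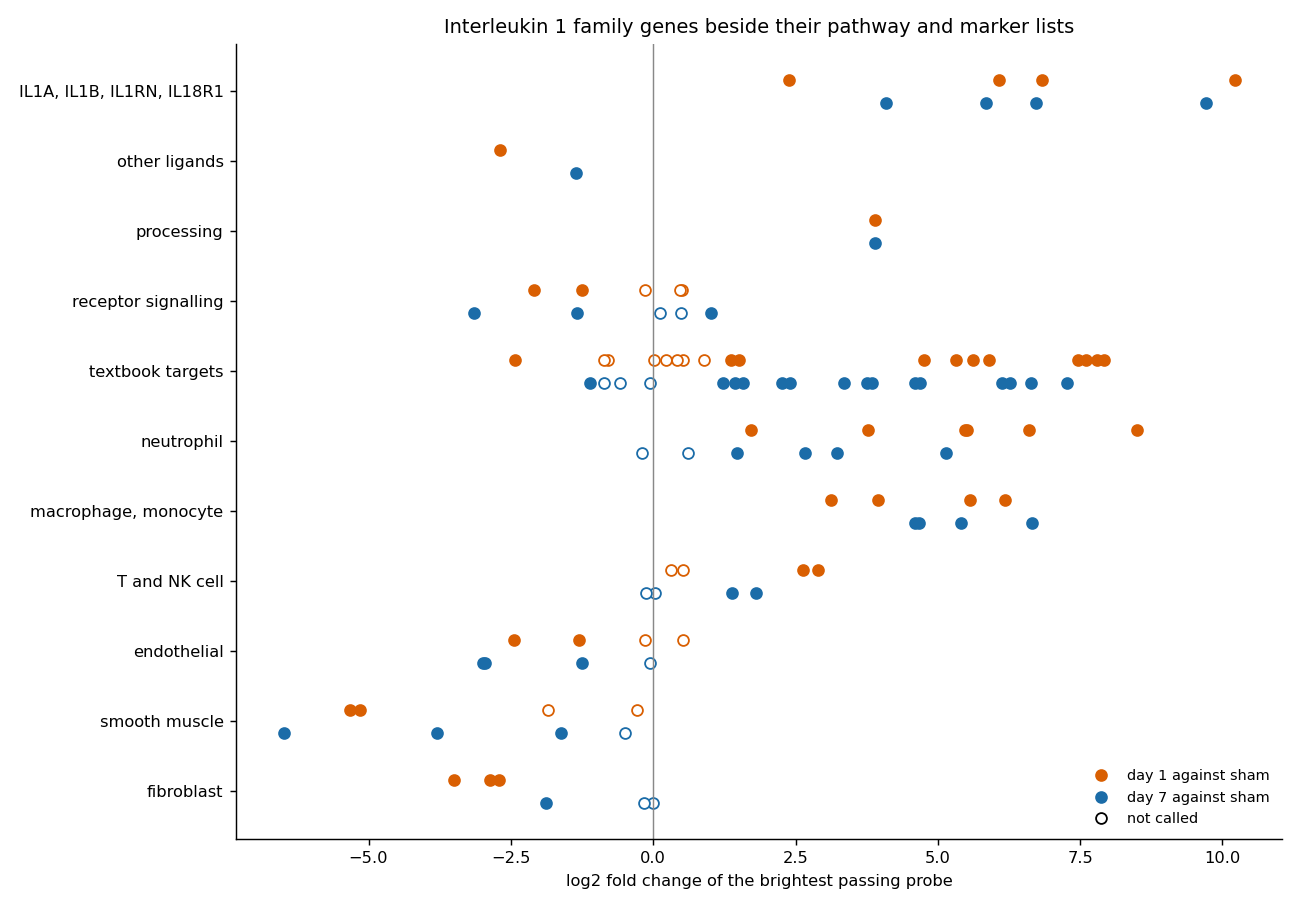
Log2 fold change over sham surgery (x axis) on day 1 (orange) and day 7 (blue) for the brightest probe of the 4 genes and of the measured genes of each pathway and marker list. Open symbols were not called. The neutrophil markers are further right on day 1 than on day 7, the macrophage markers are right of 1 on both days, and the smooth muscle and endothelial markers lie mostly to the left of 0.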

How the data were processed

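Total RNA from rabbit vein was labelled with Cy3 and hybridised to 1-colour Agilent arrays. The authors deposited scanner output holding the processed signal intensity of 45220 spots per array (Feature Extraction 11.0.1.1 per the file headers, 9.1 per the submitters' processing notes; genome build oryCun2 in the headers), and a table of log2 values that the authors had quantile-normalized, used here only as an alternative. From the intensity, control spots and flagged spots were removed (1.46% of spots were flagged on at least 1 array), repeated spots of a probe were averaged, log2 was taken, and arrays were quantile-normalized. A probe was kept (35762 were) if 1 group or more had it well above background on all its arrays. Probes were named through accessions of RefSeq (3368) or gene identifiers (2816), with the assembly mOryCun1.1. Each probe was kept as a row of its own.

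Arrays closer to each other than the noise of repeated spots were averaged. A limma (version 3.58.1, R 4.3.3) model over 3 groups gave each comparison, with Benjamini-Hochberg adjustment over all probes, and the method was tested on simulated data. All 13 probes of the 4 genes were named. In lists, each gene was given by its brightest probe. The genes named beside the 4 were the 3 with the highest Pearson r to each over the 8 samples, with those that pathway and marker lists held, and some of these are not reported here. The members and lists were chosen with earlier results of these data known. The main fit did not pair groups by replicate number. Correlations of same-numbered arrays were 0.01 to 0.05 between day 1 and day 7, and 3 of 6 matched their own number best. Every best match lay in the same-numbered set, 1, 3 and 5 or 2, 4 and 6. Since each such set was counted as 1 sample, array numbers cannot decide whether samples were paired. Alternatives were 75th percentile scaling, normexp, the authors' values, other filters and gene summaries, array averaging, scan and replicate blocks and left-out samples. Sequences were not used here.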

Additional observations from a re-analysis of the deposited data

Results flagged for a closer look

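The change of IL18R1 over sham surgery differed between the graft days, by the limma test of day 7 against day 1. The difference was 1.72 on the log2 scale for A_04_P074397 (adjusted p = 0.00203), 1.55 for A_04_P074398 (adjusted p = 0.0187) and 2.60 for A_04_P074399 (adjusted p = 6.20e-06), where the last is a fitted value and no measured size, since that probe was not well above background on any day 1 array and the bound is at least 1.62-fold.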

How the results depend on the processing

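Across the alternatives tried, all 13 probes kept a positive log2FC over sham surgery. For IL1A A_04_P002091 it ranged from 7.76 to 10.34 on day 7 and from 7.66 to 10.43 on day 1. Between the graft days IL1A turned from -0.52 to 0.23 with 75th percentile scaling and to 0.11 with the mean of its probes, not called in either. The number of member probes called between the days, 3, became 5 with 16 separate arrays, with the compared groups only, with sham arrays averaged in pairs and with a scan block, as well as with the replicate block, where IL1B A_04_P003217 and A_04_P003218 were added as lower. It became 1 with 75th percentile scaling (IL18R1 A_04_P074399), and 1, IL1B A_04_P003217 as lower, with normexp and with the requirement of a signal well above background on all 16 arrays. It was 2 whenever 1 graft sample was left out, and the counts over sham surgery then stayed at 13 and 12. IL18R1 A_04_P074397 between the days was 0.96 with 75th percentile scaling and 0.74 with normexp, and 0.40 on day 1 over sham surgery with normexp, under the fold threshold each time.

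A setting with 1 sample per graft group and sham pairs averaged was chosen after seeing the data. With it IL18R1 A_04_P074397 between the days was 1.72 but missed the threshold (adjusted p = 0.0780), and 0 probes of the 4 genes were called between the days. The other ligand, IL18, was 0 of 1 called on day 7 over sham surgery and between the days, target genes called fell to 8 and 0 in those comparisons, and signalling genes to 1 on day 7, 1 on day 1 and 0 between the days. IL18 was also 0 on day 7 with 75th percentile scaling. Signalling genes called were 1 on day 7 with normexp and with sham samples 3 and 4 only, and 1 on day 1 with sham samples 1 and 2 only.

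With 1 sample left out, signalling genes called numbered 2 to 3 on day 7, 1 to 2 on day 1 and 1 to 2 between the days, targets 13 to 15, 11 to 12 and 12 to 14, and IL18 and CASP1 kept their counts. Counts over all probes were 11756 on day 7, 17816 on day 1 and 14280 between the days. They became 6918, 10458 and 7324 with normexp, and 3271, 11942 and 0 in the setting with 1 sample per graft group. The share of calls that were higher moved from 50.6% to 64.1% on day 1 and from 52.8% to 32.1% between the days with 75th percentile scaling. That scaling put the median of all probes at 0.47 and -0.41, from 0.12 and -0.03. The causes were not tested. Signal near background limits IL18R1, low sham signal limits the fold sizes of IL1A, and the number of samples limits all tests.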
